A study of Homo sapiens with 4 samples.

Results

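Wnt ligands are the secreted proteins that start Wnt signalling, and 10 of the human ligand genes were examined here on 4 Illumina bead arrays of the human embryonic stem cell line RUES2. The 10 genes were chosen by name, and every array probe whose annotated symbol was one of them was read from the scanner table, which gave 13 probes. They are 10 of 20046 named genes on the array. Ligands that usually act through beta-catenin, called canonical here, were WNT2, WNT2B, WNT3, WNT3A, WNT6 and WNT8A. Ligands that usually act without it, called non-canonical, were WNT4, WNT5A, WNT5B and WNT11, and the same ligand can do either depending on the receptor it meets.

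All 4 samples were total RNA taken on day 5 while the cells were being driven towards heart muscle, when the labels describe them as cardiovascular progenitors. Undifferentiated cells of all samples had received a lentivirus with a short hairpin RNA (shRNA) and had been selected with puromycin before differentiation, so the controls carried a virus and a hairpin too. The control group held 2 arrays with a control shRNA, called control 1 and control 2. The TMEM88 group held 2 arrays with an shRNA against TMEM88, of which 1 carried hairpin 691 and 1 hairpin 94. Each hairpin was thus measured once, and the spread of the TMEM88 group holds the difference between hairpins. Whether the samples were separate cultures is not stated, so every p-value rests on a spread that may not hold variation between cultures. In tests of both hairpins together the residual spread comes from all 4 arrays and includes the difference between hairpins. In tests of a single hairpin, or of one hairpin against the other, it comes from the 2 controls alone. Precision is limited by how few arrays there are, and an exact permutation test of 2 arrays against 2 cannot give a 2-sided p below 0.333.

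Each Wnt protein is fitted with a lipid by PORCN, carried to the cell surface by WLS and bound by a Frizzled receptor. With the co-receptors LRP5 and LRP6 this stabilises beta-catenin, which then switches on target genes with TCF and LEF factors. With ROR2 or RYK it can instead act on cell polarity and movement. In early embryos WNT3, WNT3A and WNT8A belong to the primitive streak and the mesoderm that leaves it, while WNT5A and WNT11 belong to later mesoderm and to heart formation. TMEM88 is a membrane protein that binds Dishevelled, the relay below the Frizzled receptors, and dampens the beta-catenin branch.

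WNT3, WNT3A and WNT5A are the ligands whose signals lay farthest from the controls with a hairpin. The 250 bases before their RefSeq starts (GRCh38.p14) are therefore shown, with WNT5A given at the 2 starts that the promoter reference holds. Those 2 are numbered by coordinate, and neither lies at the upstream end of the gene, 55505263. The letters searched were CTTTGAA, its variant CTTTGAT, the variant CTTTGTA and the variant CTTTGTT for TCF and LEF factors, and for T-box factors the letters TCACACC, on both strands. Capitals mark a match.
WNT3, chr17:46818693-46818942, minus strand: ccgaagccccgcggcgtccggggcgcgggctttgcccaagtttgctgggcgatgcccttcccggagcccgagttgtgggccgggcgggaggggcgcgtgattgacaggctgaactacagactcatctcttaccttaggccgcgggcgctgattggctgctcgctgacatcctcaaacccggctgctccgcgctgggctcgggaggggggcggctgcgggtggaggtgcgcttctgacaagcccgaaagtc
WNT3A, chr1:228006748-228006997, plus strand: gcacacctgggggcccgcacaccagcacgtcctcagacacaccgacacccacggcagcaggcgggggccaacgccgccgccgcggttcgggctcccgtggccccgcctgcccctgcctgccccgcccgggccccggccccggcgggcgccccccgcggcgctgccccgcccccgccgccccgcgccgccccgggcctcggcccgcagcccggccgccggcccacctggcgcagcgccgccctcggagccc
WNT5A first start, chr3:55481399-55481648, minus strand: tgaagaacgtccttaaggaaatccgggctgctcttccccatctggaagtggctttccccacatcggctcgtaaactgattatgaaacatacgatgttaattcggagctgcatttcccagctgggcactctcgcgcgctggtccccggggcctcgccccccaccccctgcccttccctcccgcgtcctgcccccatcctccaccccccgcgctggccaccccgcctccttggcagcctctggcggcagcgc
WNT5A second start, chr3:55487307-55487556, minus strand: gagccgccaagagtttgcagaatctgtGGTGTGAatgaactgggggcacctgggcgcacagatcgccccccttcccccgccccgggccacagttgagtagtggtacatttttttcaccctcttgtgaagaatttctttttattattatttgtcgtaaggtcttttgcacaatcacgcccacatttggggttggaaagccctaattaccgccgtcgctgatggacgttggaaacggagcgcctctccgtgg

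The reference table held 12 such windows for 9 of the 10 ligands. None of the 12 had a match to the TCF and LEF letters, which 4199 of 35116 promoter windows of this length hold. A T-box match lay in 1 of the 12, the second WNT5A window, beginning 223 bases before the start on the opposite strand, against 970 of the 35116 windows. GC content was 86.0% for WNT3A, 68.8% for WNT3 and 64.4% and 52.8% for the WNT5A windows, with a median of 58.0% over all windows. These matches are letters in a sequence and show no binding. No array probe reads a promoter.

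The TMEM88 signal checks the labels, and it was lower with both hairpins. Control 1 gave a TMEM88 signal of 2292.8 and control 2 one of 2987, while shRNA 691 left 360.7 and shRNA 94 left 1329.7, which is 9.62% and 52.9% of the control mean after normalization. Over both hairpins TMEM88 did not pass (-2.15 ± 0.71, SE, limma adjusted p = 0.187). Fitted alone, each from 1 array, the log2 difference of TMEM88 was -3.38 ± 0.41 with shRNA 691 and -0.92 ± 0.41 with shRNA 94. The difference between the hairpins was -2.46 ± 0.48. It sets 1 array against 1 and did not pass after adjustment over all tested genes.

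Across the family, 4 ligands gave a signal above background and 6 did not. The scanner table gives a detection p-value with each signal, and a probe was called detected on an array when that p was under 0.01. WNT3, WNT5A and WNT5B were detected on all 4 arrays, and WNT3A on both TMEM88 arrays and neither control. WNT2, WNT2B, WNT6, WNT8A, WNT4 and WNT11 were detected on no array. So 2 of 6 canonical and 2 of 4 non-canonical ligands were measurable, and 4 of 10 ligands entered the comparison where 51.8% of all named genes did.

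**Figure D1:**
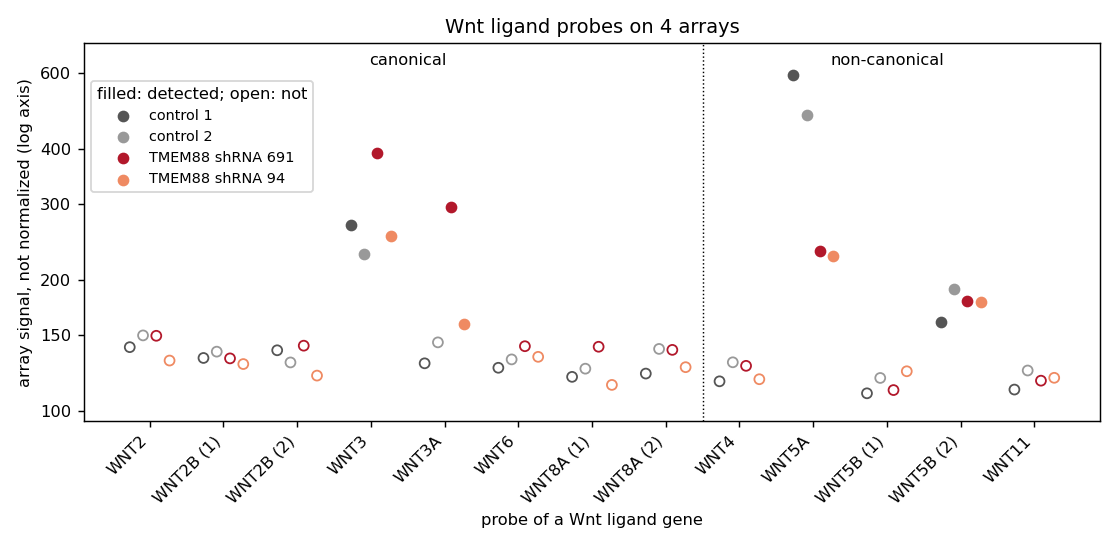
Signals of the 13 probes of the 10 Wnt ligand genes on each array, not normalized, on a log axis, with detected signals filled and undetected ones open. WNT5A was at 591.5 and 478 in the controls and at 233.9 and 227.2 with the hairpins, WNT3A reached 295.3 with shRNA 691, and the 9 undetected probes lay between 109.9 and 149.3.

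WNT5A, the non-canonical ligand needed in mouse for outgrowth of the body axis and limbs, fell with TMEM88 shRNA. The gene lies on chromosome 3 at 55465715 to 55505263. Its signal was 591.5 in control 1 and 478 in control 2, against 233.9 with shRNA 691 and 227.2 with shRNA 94. Both hairpin arrays were below both controls and close to each other. After background correction and normalization the log2 level of WNT5A was 8.70 ± 0.23 (SD, n = 2) in the controls and 6.93 ± 0.13 with the hairpins. WNT5A differed by -1.78 ± 0.24 on the log2 scale (SE, n = 2 per group, limma adjusted p = 0.0207), and the 95% interval ran from -2.36 to -1.20. WNT5A thus stood at 27.4% of the control mean with shRNA 691 and at 31% with shRNA 94.

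WNT5A was the 1 ligand called among the 4 tested, and in these arrays 1.98% of 10377 tested genes were called, 0.954% higher and 1.02% lower. Of the tested genes, 119 had a lower log2 difference than WNT5A. Without the background correction the WNT5A difference was -1.20, and it was -1.21 in the deposited log2 matrix and called in each. With all named genes tested, expressed or not, the limma adjusted p was 0.0735, above the threshold of 0.05. The call was also lost without shRNA 691 (-1.69, limma adjusted p = 0.167) and without shRNA 94 (-1.87, limma adjusted p = 0.1).

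**Figure D2:**
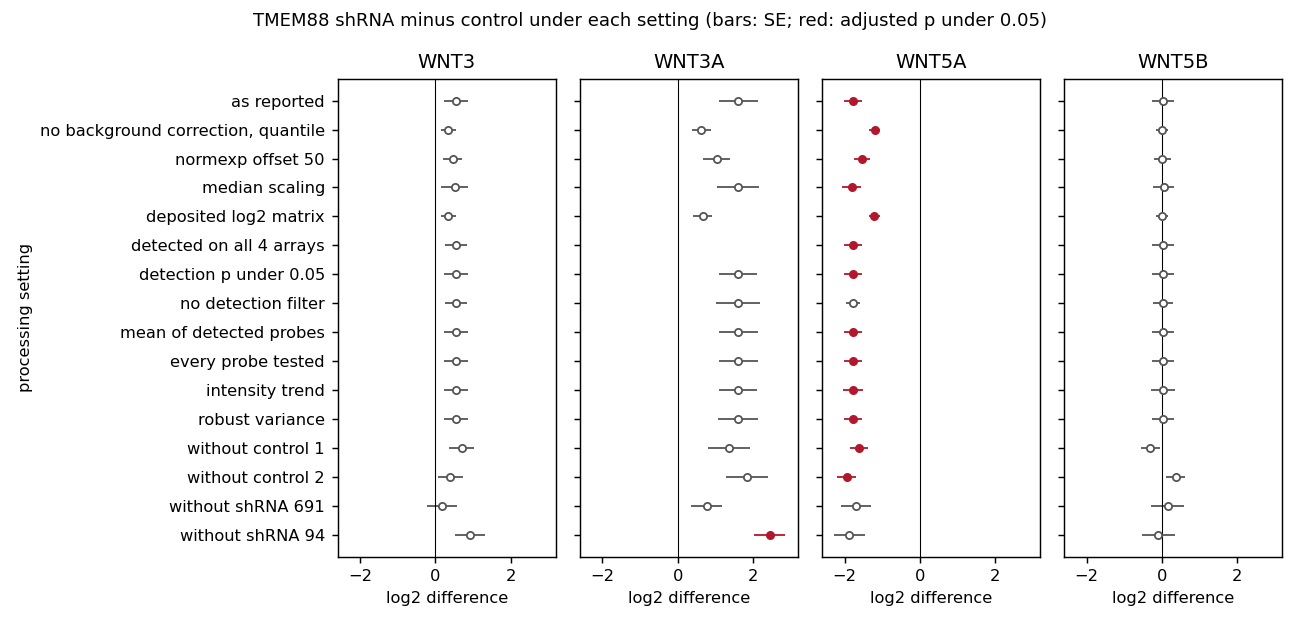
Log2 difference of TMEM88 shRNA from control for the 4 tested ligands under each processing setting, with bars for the SE and red for a limma adjusted p under the threshold. WNT5A stays between -1.94 and -1.20, WNT3A between 0.63 and 2.45, and WNT5B lies on either side of 0.

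WNT5B, the closest relative of WNT5A, did not pass the test. It lies on chromosome 12 at 1617056 to 1647212 and has 2 probes, of which 1 was detected. Its signal was 160.6 in control 1, 190.5 in control 2, 178.9 with shRNA 691 and 178.1 with shRNA 94. Both hairpin arrays lay between the controls. The log2 difference of WNT5B was 0.03 ± 0.29 (SE, n = 2 per group, limma adjusted p = 0.972), and its 95% interval ran from -0.67 to 0.73. Its other probe was undetected, at 109.9 and 119.2 in the controls and 111.8 and 123.5 with the hairpins.

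WNT3A, which in mouse maintains the paraxial mesoderm that forms somites, was detected with the hairpins alone. The gene lies on chromosome 1 at 228006998 to 228061271. Its signal was 128.8 in control 1 and 143.9 in control 2, against 295.3 with shRNA 691 and 158.5 with shRNA 94. The detection p was 0.221 and 0.0273 in the controls, so control 2 came nearer to detection than control 1. The array of shRNA 691 was well above the other 3, and that of shRNA 94 was just above control 2. WNT3A entered the test through its TMEM88 arrays alone, so its higher level there was part of how it was selected. After background correction the hairpin mean was 2.18-fold above a control floor. That floor was the lowest detected level of each control array or the probe's own level, whichever was higher. The fold depends on the correction and is no lower bound: without it the fitted log2 difference was 0.63. The limma adjusted p of both hairpins against the controls, after the correction, was 0.179, so WNT3A did not pass. The fitted log2 difference of 1.61 is set against control signals below detection, so it is no measured change.

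WNT3, required in mouse for the primitive streak to form, lies on chromosome 17 at 46762506 to 46818692 and was detected on every array. Its signal was 267.9 in control 1, 230 in control 2, 391.5 with shRNA 691 and 252 with shRNA 94. The raw signal of shRNA 94 lay between the controls, and that of shRNA 691 above all. After normalization shRNA 94 stood at 7.30 against 7.29 in control 1, so the gap between the nearest arrays of the groups was smaller than that between the controls. The log2 difference of WNT3 was 0.54 ± 0.31 (SE, n = 2 per group, limma adjusted p = 0.415), with a 95% interval from -0.20 to 1.29.

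In normalized values WNT3 and WNT3A had both hairpins above both controls and WNT5A both below, while WNT5B overlapped. Such separation held for 50.2% of all tested genes, 25.2% upward and 24.9% downward, so 3 separated ligands of 4 are not a result about the family.

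**Figure D3:**
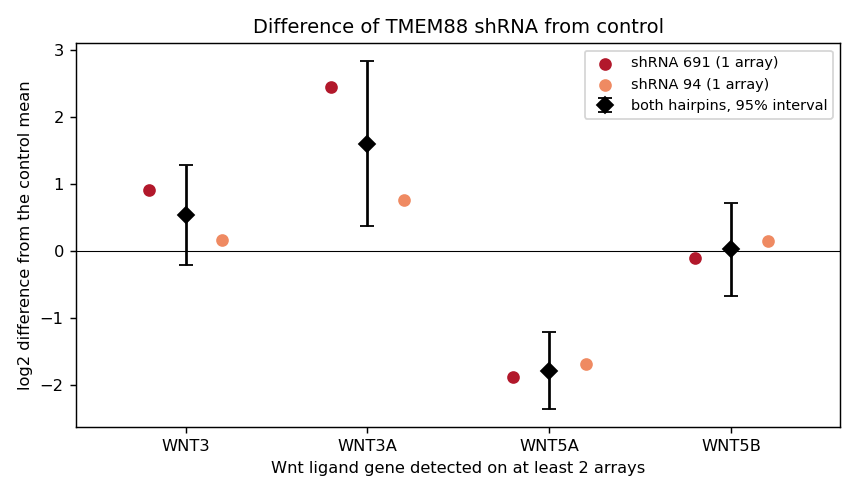
Log2 difference from the control mean for the 4 ligands detected on at least 2 arrays, with diamonds and 95% intervals for both hairpins together and circles for each hairpin's own array. The WNT5A interval, from -2.36 to -1.20, lies below 0, and for WNT3 and WNT3A the circle of shRNA 691 (0.92 and 2.45) lies above that of shRNA 94 (0.17 and 0.77), the WNT3A values being set against undetected controls.

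The hairpins, which left different amounts of TMEM88 signal, can be set side by side. WNT3 stood at 189% of the control mean with shRNA 691 and at 112% with shRNA 94. WNT3A, undetected in the controls, entered the test through its TMEM88 arrays alone. After background correction it was 3.9-fold above the control floor described above with shRNA 691 and 1.22-fold with shRNA 94. These folds depend on that correction and are no lower bounds. Without it the fitted log2 differences of WNT3A were 1.03 with shRNA 691 and 0.235 with shRNA 94. WNT5A stood at 27.4% and 31%, and WNT5B at 93.7% and 111%.

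Tested 1 hairpin at a time against the shared controls, WNT3A had an adjusted p below the threshold with shRNA 691 (fitted log2 difference 2.45, limma adjusted p = 0.0405) and not with shRNA 94 (0.77, limma adjusted p = 0.707). Each value sets 1 array against controls below detection, for a gene that entered the test through its TMEM88 arrays, so the p-value does not establish a rise. In these fits 0.867% of tested genes were called with shRNA 691 and 0.482% with shRNA 94, and WNT3A was the 1 ligand among them in either. A lone array is assumed there to vary like the controls. The adjusted p of WNT3A with shRNA 691 was above the threshold without background correction (1.03, limma adjusted p = 0.238), with the deposited matrix (1.07, limma adjusted p = 0.187), with a larger offset (1.65, limma adjusted p = 0.0568) and with no detection filter (limma adjusted p = 0.586). For WNT5A the single fits gave -1.87 ± 0.40 and -1.69 ± 0.40, neither called (limma adjusted p = 0.1 and 0.167).

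The difference between hairpins was tested directly in the same fit. It was 1.68 ± 0.48 for WNT3A, which was detected on both of these arrays but on neither control. The hairpin difference was 0.75 ± 0.46 for WNT3, -0.18 ± 0.46 for WNT5A and -0.25 ± 0.51 for WNT5B. Each sets 1 array against 1, so the residual spread behind these SEs comes from the controls, where WNT3A was below detection. Over all tested genes the SD per array was 0.397 between the controls and 0.254 between the hairpins. No gene of the array passed that test in limma (0% called, 98 genes at an unadjusted p under 0.05), so none of these ligands was shown to respond differently to the hairpins. The interval for WNT5A, from -1.24 to 0.87, does not show that the hairpins acted alike.

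The undetected ligands can be given only as signals near background. WNT2, active in mouse in the second heart field and lung, came nearest to detection, at 140.3 in control 1, 149.3 in control 2, 149 with shRNA 691 and 130.7 with shRNA 94, with a lowest detection p of 0.0156. With a detection limit of 0.05 WNT2 entered the test, and it was not called. WNT2B, a close relative of WNT2, has 2 probes, at 120.7 to 141.4 and 128.3 to 137. The 2 probes of WNT8A, a ligand of the early streak in vertebrates, ranged from 122 to 139 and from 114.9 to 140.6. WNT6, known from ectoderm and somites in mouse and chick, ranged from 125.8 to 141. Among the non-canonical ligands, WNT4, known for its role in kidney formation in mouse, ranged from 117.1 to 129.5. WNT11, a ligand that promotes heart formation in frog and chick, ranged from 112.1 to 124. A signal below detection sets no level, so no fold is given for any of them.

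The other 9 human Wnt ligand genes on the array gave no detected signal either, on 12 probes between 105.4 and 139.3. Some lie beside a detected member. WNT9B lies 14.5 kb from WNT3 on chromosome 17, and WNT9A lies 59.1 kb from WNT3A on chromosome 1. Both neighbours were undetected on all arrays, including those where WNT3A was seen. WNT6 and WNT10A, which overlap by 118 bases on chromosome 2, were undetected together.

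By the distance between log2 profiles centred on the controls, the 5 tested genes most like WNT5A over the 4 arrays were EPHA4, TUBB6, MXRA5, FYB2 and PBX3. Their root mean square distances were 0.09, 0.13, 0.14, 0.15 and 0.16, and 16 of 10377 genes lay within 0.25. EPHA4, a receptor for ephrins, gave 860.7 in control 1, 772.2 in control 2, 304.2 with shRNA 691 and 293 with shRNA 94. PBX3, a homeodomain partner of HOX proteins, went from 4602.2 and 3708.6 to 1001 and 1230. MXRA5 and FYB2 were undetected with both hairpins. With 4 arrays such likeness is a description of size and direction.

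Of the genes for ligand acylation, secretion, surface binding and deacylation 12 were tested, and PORCN was not among them. None of the 12 passed, and their median log2 difference was -0.22 against 0.001 over all tested genes. The brightest, the ligand carrier WLS, gave 3710.1 in control 1, 3006 in control 2, 5304.7 with shRNA 691 and 7117.3 with shRNA 94. Its log2 difference was 0.89 ± 0.26 (SE, limma adjusted p = 0.146). The glypican GPC4, a surface proteoglycan that binds Wnts, stood at 0.83 ± 0.23 (limma adjusted p = 0.138).

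Of 8 tested Frizzled genes 2 rose and none fell, with a median of 0.72. FZD7 went from 899.1 and 666.9 in the controls to 3038.1 with shRNA 691 and 2211.6 with shRNA 94. FZD2, a receptor that can take WNT5A, went from 1172.4 and 1091.7 to 3431.9 and 2651.7. Both hairpins were well above both controls for each of these receptors. The log2 differences were 1.96 ± 0.28 for FZD7 and 1.56 ± 0.25 for FZD2 (SE, limma adjusted p = 0.0227 and 0.0297). FZD4, named after its values were seen as the 1 Frizzled with a negative difference, gave 1818.1 in control 1, 2369 in control 2, 902.6 with shRNA 691 and 877.5 with shRNA 94, and did not pass (-1.27 ± 0.25, limma adjusted p = 0.0617). None of 5 tested co-receptor and non-canonical receptor genes passed, and the list median was 0.51. RYK stood at -0.07 ± 0.24 and PTK7 at 0.51 ± 0.23. ROR1 and ROR2, named after their values were seen because they bind WNT5A, stood at 1.26 ± 0.27 and 1.24 ± 0.32 (limma adjusted p = 0.077 and 0.116), opposite in sign to their ligand.

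None of 8 secreted antagonists passed (median -0.10, SFRP1 0.05 ± 0.29, DKK3 0.98 ± 0.24), and neither did the 2 tested genes of receptor turnover, LGR4 at -0.38 ± 0.25 and ZNRF3 at -0.49 ± 0.29. None of the R-spondin genes was detected on more than 1 array, so none was tested. Of 13 transduction genes TCF7L1, a factor that mostly represses targets, rose by 1.56 ± 0.26 (limma adjusted p = 0.0344), from 182.6 and 161.1 in the controls to 318.3 and 275.4. The list median was -0.01.

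Of 12 feedback targets of the beta-catenin branch SP5 alone was called, higher by 3.29 ± 0.32 (limma adjusted p = 0.0068). The list median was 0.12, with 6 positive and 6 negative differences. NOTUM and SP8, like the antagonist CER1, were detected on no control array and entered the test through the TMEM88 arrays alone. The transduction gene PYGO1 entered through the controls alone. SP5, a repressor that is itself a target, had signals of 216.4 in control 1, 165.2 in control 2, 930.7 with shRNA 691 and 805.7 with shRNA 94. The general target AXIN2, named after its value was seen, stood at -0.09 ± 0.23 with a 95% interval from -0.63 to 0.46. In the polarity and calcium branch, to which WNT5A usually signals, 1 of 15 passed. PRICKLE1, a planar polarity protein, fell from signals of 1047.4 and 1492.8 to 349.5 with shRNA 691 and 317.6 with shRNA 94, a log2 difference of -2.28 ± 0.27 (limma adjusted p = 0.0148). The median there was -0.08.

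**Figure D4:**
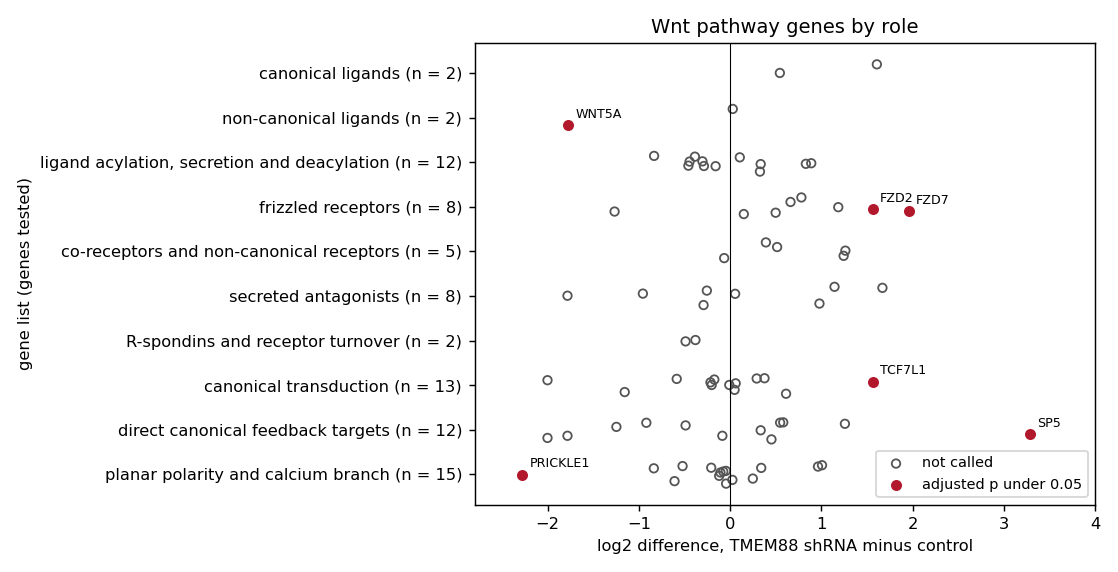
Log2 difference of TMEM88 shRNA from control for every tested Wnt pathway gene, by role, with called genes in red. WNT5A (-1.78) and PRICKLE1 (-2.28) lie on the low side, and FZD2 (1.56), FZD7 (1.96), TCF7L1 (1.56) and SP5 (3.29) on the high side.

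Markers of several cell types differed between the groups, while of the ligands only WNT5A was called. Over 4 tested genes of the primitive streak, where WNT3 and WNT3A belong, 2 rose (MESP1 and EOMES). Their summed normalized level was 509.2 to 605.5 in the controls and 4091 to 5475 with the hairpins, while TBXT, MIXL1 and TBX6 were undetected on at least 3 arrays. Of 5 paraxial genes 3 rose, with sums of 849.1 to 929.7 and 2254 to 3015. Of 6 smooth muscle, fibroblast and epicardial genes, cells in which WNT5A is often found, 2 fell (ACTA2 and LUM, the latter undetected with both hairpins). The sums were 6002 to 6491 in the controls and 3451 to 4699 with the hairpins. TAGLN, the brightest of that list on every array, did not fall (0.11 ± 0.33), and CNN1, COL1A1 and TCF21 did not pass. Of 9 cardiovascular progenitor genes 3 fell (PDGFRA, HAND2 and MEF2C) and none rose, and TBX5 was undetected. The sums were 8129 to 12230 and 9167 to 9869. They include the bright ISL1 and HAND1, which did not pass (0.03 ± 0.26 and 0.71 ± 0.50). All 3 tested neural ectoderm genes rose (OTX2, ZIC2 and OTX1), with sums of 172.4 to 485.4 in the controls and 2663 to 2812 with the hairpins. Each of these 3 was higher in control 1 than in control 2 by over 1 on the log2 scale. PAX6, SOX1 and HESX1 of the same list were detected on fewer than 2 arrays and were not tested. Of 7 endoderm genes CXCR4 rose, and the sums were 969.8 to 1681 and 3602 to 3754. CER1 and TTR of that list, TCF15 of the paraxial list and GSC of the streak list were detected on no control array. They entered the test through the TMEM88 arrays alone, as LUM and MEF2C did through the controls. None of 5 pluripotency, 3 endothelial and 4 amnion and trophoblast genes passed in limma, and the endothelial sums were 668 to 1042 and 2119 to 3102. VWF made up most of these endothelial sums. The log2 differences were 1.88 for VWF, 1.32 for SOX18 and -0.14 for TEK. PECAM1, CDH5, TIE1 and ERG were detected on fewer than 2 arrays and were not tested. Fewer cells of a type and less RNA per cell cannot be told apart in such samples, and the part of these cells in the ligand values was not tested.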

How the data were processed

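Signals came from the deposited scanner table, which holds, per the file headers, a linear intensity and a detection p-value for each of 47322 probes on 4 arrays. The authors' deposited series matrix holds log2 values, with column medians of 7.02, of a normalization that no label or header states. It lay within 0.158 of quantile-normalized log2 signal. The tools lumi and limma 3.12.3 are listed in the submitters' processing notes with no role. Array medians were 130.9 to 135.7, and 15300 to 16516 probes were detected.

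Intensities were corrected and quantile-normalized with neqc (offset 16, background from the detection p-values) of limma 3.58.1 in R 4.3.3. Symbols came from the platform annotation: 30113 probes had 1 symbol, 8 several and 17201 none, and 30074 matched the gene table of GRCh38.p14. Each gene was represented by its brightest probe detected on at least 2 arrays, giving 10377 genes. Groups were compared with lmFit and eBayes (2 residual and 4.84 prior degrees of freedom), 2-sided, with Benjamini-Hochberg adjustment over all tested genes and a threshold of 0.05. Single hairpins were fitted in 3 groups with 1 residual degree of freedom. Differences are TMEM88 shRNA minus control. The steps were tested on simulated data.

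The ligands and lists were chosen with earlier results of these data known. Named are TMEM88, all ligands, up to 3 called genes of each other list (or the 2 brightest) and the 5 profiles nearest to a called ligand. Figures used matplotlib 3.10.9.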

Additional observations from a re-analysis of the deposited data

How the results depend on the processing

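WNT5A kept a negative difference under all 15 alternatives tried, from -1.94 to -1.20, and was called in 12 of them. It was not called with no detection filter, nor without shRNA 691 or without shRNA 94, where 1 hairpin array is left and the residual spread comes from the controls alone (limma adjusted p = 0.167 and 0.1). WNT3 stayed positive and uncalled in 15 of 15, from 0.17 to 0.92. WNT3A stayed positive in 14 of 14, from 0.63 to 2.45, and had an adjusted p below the threshold only without shRNA 94, where it is the test of shRNA 691 alone against undetected controls. It could not be tested when detection on all 4 arrays was asked for. WNT5B changed sign without control 1 (-0.31) and without shRNA 94 (-0.09), and ranged to 0.36. Several alternatives changed only the set of tested genes, the choice of probes or the variance model. Each tested ligand had 1 detected probe, so its difference could not move under those. They left WNT5A at -1.78, WNT3 at 0.54 and WNT3A at 1.61 by construction, and say nothing about sign or size.

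The count of called ligands was 1 in the reported setting, 0 with no detection filter, and 0 to 1 with an array left out, being WNT3A instead of WNT5A without shRNA 94. The count of all called genes, 205, became 19 with no filter, 448 at a threshold of 0.1 and 50 to 1453 with an array left out. For shRNA 691 the count of 90 became 19 without background correction, 46 with the deposited matrix, 32 with detection on all arrays, 0 with no filter and 171 with the mean of detected probes. For shRNA 94 the count of 50 became 5, 26, 3, 0 and 147 in the same order, 76 with an offset of 50, 79 with median scaling and 111 with an intensity trend.

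Settings for single ligands by hairpin were chosen after seeing the data. Median scaling in place of quantile normalization moved the median difference between hairpins over all genes from 0.01 to 0.12. With it WNT5B turned to 0.002 for shRNA 691, and the WNT5A difference between hairpins to 0.004. With the mean of detected probes WNT5A passed for shRNA 691 (limma adjusted p = 0.0342). The causes were not tested. No paired analysis was possible because the titles hold no code that links a single control array to a single TMEM88 array. The only code shared between groups stands in every title, and the replicate numbers used here only name the samples. Signal over background limits every ligand, and WNT3 and WNT5A least. The lowest detected signals were 147 to 152.4, close to WNT5B on every array and to WNT3A with shRNA 94. Without background correction the difference of WNT3 was 0.34 against 0.54 as reported, and that of WNT5A was -1.20 against -1.78.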

Other observations

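The control arrays differed from each other in several gene lists, among them targets of the beta-catenin branch. Of 12 tested feedback targets, 4 were higher in control 2 than in control 1 by over 1 on the log2 scale and none was lower by as much. Over all tested genes 349 were higher and 378 lower by that much, 7.01% in all. The feedback targets are not particular in this: the share apart by over 1 was 33.3% for them, 100% of 3 neural ectoderm genes, 75% of 4 primitive streak genes, 50% of 4 amnion and trophoblast genes and 44.4% of 9 cardiovascular progenitor genes. DKK1, a secreted antagonist and target, had signals of 326.4 in control 1 and 1311 in control 2, against 291.6 with shRNA 691 and 222.3 with shRNA 94. LEF1, a target and partner of beta-catenin, had 820.6 and 1937.4, against 467 and 318.7. TNFRSF19 had 859.3 and 2716.1, against 663 and 686.6, and the homeobox gene MSX1 had 648.9 and 1855.9, against 680.3 and 523.3. For these 4 genes the hairpin arrays lay nearer to control 1 than to control 2. The 4 detected ligands were less than 1 apart between the controls, with control 2 minus control 1 at -0.30 for WNT3, 0.47 for WNT3A, -0.32 for WNT5A and 0.67 for WNT5B. These genes were picked after their values were seen, and what sets the controls apart was not tested.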
